A study of Mus musculus with 20 samples.

Results

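Activated pre-plasma cells and plasma cells that fell into the same sort gate were compared in lymph nodes of C57BL/6 mice. The authors' table of 1367 single cells names a sort gate for each cell, and 282 cells came from the pre-plasma gate. Within it, 29 cells carried the authors' state activated pre-plasma and 128 the state plasma cell, 157 cells of 1367 in all. The mice had been immunised with the hapten-carrier conjugate NP-KLH in Sigma Adjuvant System, and eYFP-positive cells were sorted on day 15, 4 days after tamoxifen by gavage. Both groups share the strain, the immunisation, the tamoxifen and the eYFP sort, and the promoter that drives the reporter, the ages, the number of mice and the markers that define the gate are not given in the sources used here. Plates carry 1 of 2 sampleIDs. C57BL/6F gave 10 activated and 63 plasma cells, and C57BL/6M gave 19 activated and 65 plasma cells.

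A B cell that leaves the germinal centre to become a plasma cell switches from division and antigen recognition to antibody secretion. Irf4 and Prdm1, which encodes Blimp-1, start the plasma programme, and Xbp1 widens the endoplasmic reticulum (ER) so that antibody chains can be folded, glycosylated and exported. Myc drives ribosome production and growth in B cells that receive T cell help.

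Counts were summed per plate and state, and a pool needed at least 2 cells. This gave 10 activated pools of 2 to 4 cells, which hold 25 of the 29 activated cells, and 19 plasma pools of 3 to 11 cells, which hold all 128. Pool totals ran from 303497 to 1242978 counts in the activated pools and from 302807 to 1796728 counts in the plasma pools. The 4 remaining activated cells stood alone on their plates. Plates are wells of sorted cells and may share animals, so p-values measure the spread between plates, which may be technical. A count per gene and cell cannot exceed 1024 because the molecular tag has 5 bases, and 1 of 29 activated and 17 of 128 plasma cells held a gene at that limit.

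The states are separated by transcript scores that the authors deposited. The plasma score reached 0.497 at most in activated cells and 0.5001 at least in plasma cells, so the border lies at 0.5, and 12 activated and 19 plasma cells lay within 0.05 of it. The activation score was 0.541 at least in activated cells, and 21 of 128 plasma cells were at or above that value. The genes behind the scores are not given in the sources used here. RNA differences between the states therefore describe the states and are not independent of the choice of cells. Index-sort fluorescence is a separate measurement of the same cells. Receptor mutations are read from sequence and not from gene counts, but from RNA of the same cells.

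Activated cells yielded more RNA. Over the 10 plates with at least 2 cells of each state, plate means of log2 counts per cell were 17.17 at the lowest, 17.83 at the median and 18.66 at the highest in activated cells, against 15.72, 16.48 and 17.02 in plasma cells. The plate means did not overlap, and the activated mean was higher on 10 of 10 plates. The difference was 1.39 log2 (SD 0.54, n = 10 plates, exact two-sided sign-flip permutation p = 0.00195, the smallest this design allows). Relative to spike-in RNA added to each well, counts were 1.51 ± 0.53 log2 higher (SD, n = 10 plates), again on 10 of 10 plates. Genes detected per cell were 0.95 log2 higher, and 0.87 log2 higher after each cell was thinned to 20000 counts. The immunoglobulin share of counts was 1.72% ± 0.58 in activated cells and 6.00% ± 1.34 in plasma cells (SD, n = 10 plates), lower on 10 of 10 plates. The mitochondrial share of counts was 0.787% ± 0.191 in activated cells and 1.13% ± 0.273 in plasma cells (SD, n = 10 plates), lower on 9 of 10 plates (exact permutation p = 0.00391), and its part in the gene differences was not tested.

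**Figure D1:**
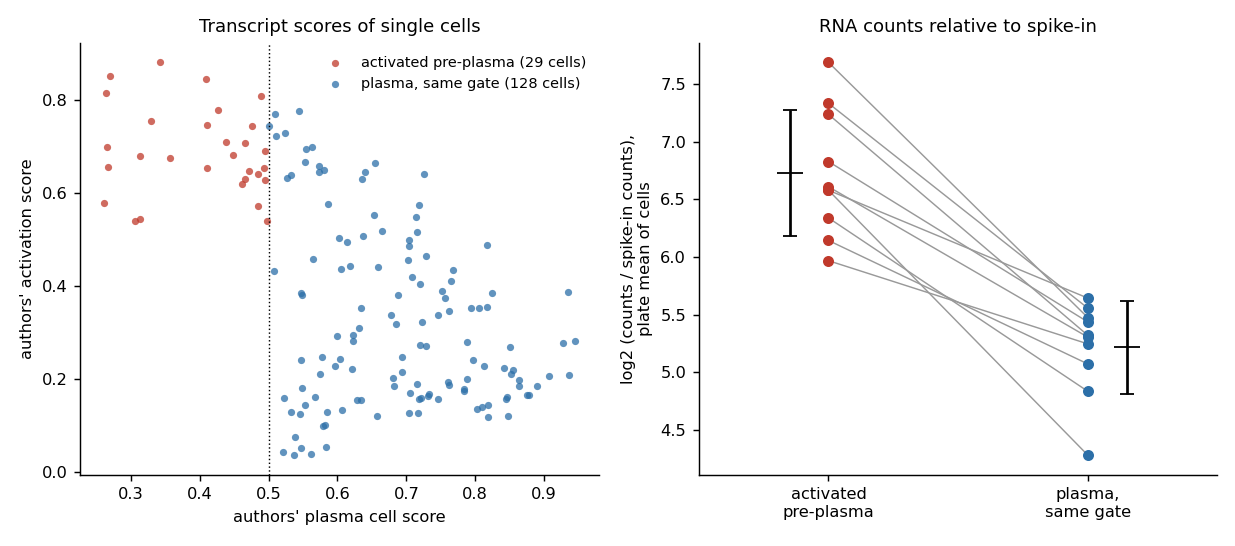
Left, the authors' plasma score (x) and activation score (y), both without unit, of 29 activated pre-plasma (red) and 128 plasma cells (blue), with a dotted line at 0.5. Right, plate means of log2 counts per spike-in count, with a line for each of 10 plates and black bars for mean and SD. The activated mean is the higher of the pair on 10 of 10 plates.

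The 3 markers of the comparison did not move together. Irf4 was 0.00, 178.6 and 449.8 CPM (counts relative to the TMM-scaled library total, lowest, median and highest pool) in activated pools, against 0.00, 187.7 and 677.7 CPM in plasma pools. These ranges overlap almost wholly, and the difference was 0.06 ± 0.66 log2 (SE, 10 and 19 pools, edgeR quasi-likelihood test with Benjamini-Hochberg adjustment, adjusted p = 0.998), too wide to show equal levels. Xbp1 was 93.9, 865 and 1357 CPM in activated pools, against 1814, 2779 and 4657 CPM in plasma pools. The ranges of Xbp1 do not overlap, and it was lower by -1.79 ± 0.23 log2 (adjusted p = 6.21e-07). With spike-in scaling the Xbp1 call was lost (-0.245 log2, adjusted p = 0.484). Sdc1, which encodes CD138, the proteoglycan used to recognise plasma cells, was 0.00, 0.00 and 42.6 CPM in activated pools, against 0.00, 109.8 and 507.0 CPM in plasma pools. It was detected in 3 of 10 activated and 16 of 19 plasma pools and was lower by -4.14 ± 1.18 log2 (adjusted p = 0.0402). The Sdc1 call was lost without plate 8, 12, 13, 14, 15, 19 or 20 (-4.26 to -3.71 log2, adjusted p 0.0573 to 0.125) and with spike-in scaling (-2.32 log2, adjusted p = 0.157). The activated cells thus carried Irf4 RNA with little Sdc1 RNA.

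Among other regulators, Prdm1 had a median of 24.3 CPM in activated and 87.5 CPM in plasma pools, and its difference of -1.97 ± 0.91 log2 did not pass (adjusted p = 0.443). Myc had a median of 208.8 CPM in activated and 30.8 CPM in plasma pools, with a difference of 1.68 ± 0.98 log2 (adjusted p = 0.724). Mki67, a marker of dividing cells, differed by 0.44 ± 0.47 log2 (adjusted p = 0.974). Bcl6, Pax5 and Bach2, which hold B cells in the germinal centre or B cell state, had too few counts to be tested. Over all cells of each state Bcl6 had 0 counts in 29 activated cells and 28 counts in 2 of 128 plasma cells. Pax5 had 57 counts in 5 activated cells and 39 counts in 3 plasma cells, and Bach2 had 0 counts in activated cells and 3 in plasma cells.

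Across the genome, 5515 genes passed the filter on low counts and 158 passed an adjusted p of 0.05. Of these 154 were lower in activated cells, 2.79% of the genes tested, and 4 were higher, 0.0725%. The median log2 fold change of all tested genes was -0.13. In 26 genes every activated pool lay below every plasma pool, 0.471% of those tested, and in 0 genes every activated pool lay above. The split depends on scaling. With DESeq2's size factors the median was 0.07 and 26 genes were higher (0.471%) and 131 lower (2.38%). Scaled to spike-in RNA, an alternative added after the data were seen, the median was 1.32 and 1060 genes were higher (19.2%) and 26 lower (0.471%). Most genes called lower in CPM were thus not called lower per unit of spike-in. When plasma cells were restricted to those at or above the lowest activation score of an activated cell (15 cells in 6 pools, also added after the data were seen), 0 of 5365 genes passed edgeR's quasi-likelihood test, with 95 at an unadjusted p under 0.05. Restricted to plasma cells with at least the counts of the shallowest activated cell (65 cells in 17 pools), 2 genes were higher and 82 lower of 5165 tested. These 82 were among the 154.

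The 3 genes that met the naming rule among those higher act in RNA handling and ribosome assembly. Lsm7, a subunit of the ring that binds U6 small nuclear RNA and decaying messages, was 358.4, 681.4 and 951.4 CPM in activated pools, against 38.0, 226.1 and 661.1 CPM in plasma pools. It was higher by 1.37 ± 0.30 log2 (adjusted p = 0.00282), although the ranges overlap. Hnrnpa1, a splicing factor, was higher by 1.0 ± 0.27 log2 (adjusted p = 0.0264), and Npm1, the nucleolar chaperone nucleophosmin, by 0.76 ± 0.20 log2 (adjusted p = 0.0247). The ranges of both overlap, with medians of 1103 CPM in activated and 548 CPM in plasma pools for Hnrnpa1, and of 1681 CPM in activated and 1007 CPM in plasma pools for Npm1. These 3 were also called with DESeq2's size factors and with spike-in scaling. None of the 3 was called with pools of at least 3 cells (adjusted p 0.531 for Lsm7, 0.222 for Hnrnpa1 and 0.0517 for Npm1). Hnrnpa1 lost its call without plate 3, 12, 14 or 20 (adjusted p 0.0581 to 0.0905), and Npm1 without plate 3, 12 or 20 (0.0598 to 0.0847). Both also lost it with plasma cells of matched depth (0.0874 for Hnrnpa1 and 0.517 for Npm1) and among cycling cells (0.183 for Hnrnpa1 and 0.0694 for Npm1), and Hnrnpa1 with plate as a block (0.0655).

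**Figure D2:**
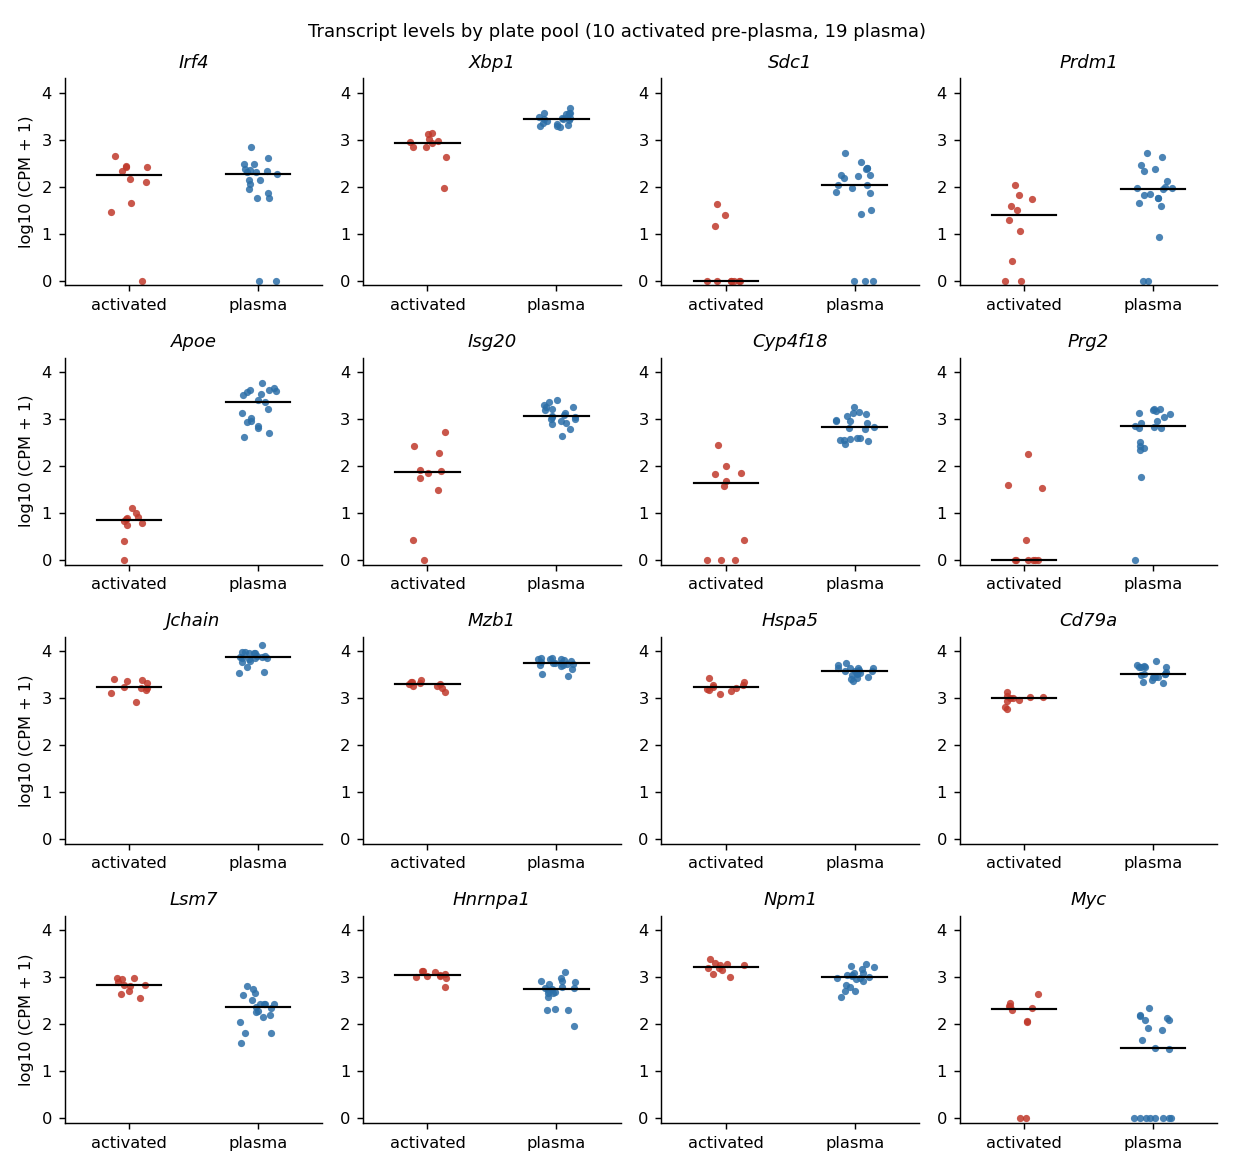
TMM-scaled level of 16 genes in each pool, as log10 (CPM + 1), with 10 activated pre-plasma pools (red) and 19 plasma pools (blue) and a black line at each median. Irf4 overlaps, while every activated pool of Xbp1, Apoe, Cyp4f18, Jchain, Mzb1 and Cd79a lies below every plasma pool.

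Apoe, which encodes the lipid carrier apolipoprotein E, was low in every activated pool. It was 0.00, 6.15 and 11.8 CPM in activated pools, against 400.0, 2222 and 5692 CPM in plasma pools. The ranges do not overlap, and the difference was -8.57 ± 0.56 log2 (adjusted p = 1.95e-14). Over all cells, 19 of 29 activated cells held 81 Apoe counts in all and 110 of 128 plasma cells held 32112. Cells annotated plasma but sorted in the plasma gate averaged 127 ± 203 CPM of Apoe without TMM scaling (SD, 19 pools), against 2145 ± 1505 CPM in the plasma cells of the pre-plasma gate.

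Macrophages also express Apoe and Cd68, and markers of other cell types were read beside them. Cd68, a lysosomal protein, had 27 counts in 1 activated cell and 2086 counts in 31 of 128 plasma cells, and was lower by -5.61 ± 1.26 log2 (adjusted p = 0.00348). Of 12 myeloid markers 10 were in the matrix, and Adgre1 and Tyrobp had 0 counts in both states. C1qa had 0 counts in activated cells and 31 in 1 plasma cell, and Csf1r had 0 in activated cells and 1 in plasma cells. Lyz2 had 8 counts in 3 activated and 134 in 22 plasma cells, and C1qb had 0 in activated and 42 in 3 plasma cells. Itgam had 102 counts in 4 activated and 60 in 4 plasma cells, and Fcer1g had 458 in 2 activated and 390 in 12 plasma cells. The summed myeloid markers ran from 0.00 to 886 CPM in activated pools, with 457 of 458 Fcer1g counts in 1 cell, and from 0.00 to 409.5 CPM in plasma pools. None of the 9 T cell markers in the matrix had a count in activated cells, and their sum reached 36.7 CPM in plasma pools. Of 11 stromal, endothelial and red cell markers 10 were in the matrix, with a sum of up to 214 CPM in activated and 78.2 CPM in plasma pools, of which the only tested gene was Pecam1 (2.08 ± 1.46 log2, adjusted p = 0.844). The part of such cells in the Apoe and Cd68 values was not tested.

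The other genes named for the size of their fall have varied roles. Prg2, proteoglycan 2, was 0.00, 0.00 and 172.9 CPM in activated pools, against 0.00, 699.4 and 1645 CPM in plasma pools, and was lower by -5.15 ± 0.91 log2 (adjusted p = 0.000138). Cyp4f18, a cytochrome P450 that oxidises leukotriene B4, had no overlap, with at most 282.1 CPM in activated and at least 292.9 CPM in plasma pools (-3.98 ± 0.68 log2, adjusted p = 7.99e-05). Isg20, an interferon-induced exonuclease, had medians of 74.2 CPM in activated and 1124 CPM in plasma pools (-3.43 ± 0.53 log2, adjusted p = 1.61e-05), with 1 activated pool inside the plasma range. Gpx3, a secreted glutathione peroxidase, Irf7, an interferon regulatory factor, Pld3, a lysosomal exonuclease, and Trp53inp1, a stress gene induced by p53, were lower by -6.01, -6.58, -4.30 and -3.88 log2, with adjusted p from 0.000789 for Gpx3 to 0.0414 for Trp53inp1. The Trp53inp1 call was lost without plate 3, 12, 13, 14, 15, 17 or 19 (adjusted p 0.0600 to 0.132). Selm, which encodes an ER selenoprotein, had 0 counts in the activated pools and 2408 in the plasma pools, 364-fold lower against a floor of 3 counts over all activated pools, but 1 activated cell outside the pools held 24. Tmed6, a cargo receptor of the early secretory pathway, had 4 counts in activated pools, and its 3675 counts in plasma pools came from 19 of 128 cells. The fold for Selm covers counting error only. Among S and G2M cells only, added after the data were seen, Isg20, Selm and Apoe stayed lower (edgeR, adjusted p 0.00405 for Apoe to 0.0180 for Selm). The calls of Prg2, Cyp4f18, Gpx3, Irf7, Pld3, Trp53inp1, Cd68 and Sdc1 were lost there (adjusted p from 0.137 for Irf7 to 0.998 for Prg2). Their values ran from -5.51 log2 for Irf7 to -1.88 log2 for Prg2, and Tmed6 was not tested.

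The ER and secretory genes were lower as a body in CPM. The 4 ER lists, for chaperones and folding, translocation and glycosylation, transport to the Golgi, and degradation with the stress response, hold 114 genes, of which 104 were tested, 48 were lower and 0 higher, against 2.79% and 0.0725% of all genes. The lists were chosen with earlier results of these data known and plasma scores may use such genes, so the counts are a description. Of 27 folding genes 20 were lower, with a median of -1.18 log2 against -0.13 for all genes. Hspa5, the chaperone BiP, was 1202, 1678 and 2648 CPM in activated pools, against 2309, 3762 and 5420 CPM in plasma pools. It was lower by -1.10 ± 0.13 log2 (adjusted p = 1.19e-07), with a narrow overlap of the ranges. Ppib, Hsp90b1, Pdia4 and Dnajc3, an isomerase, the chaperone GRP94, a disulphide isomerase and a co-chaperone, were lower by -1.41, -1.32, -1.58 and -1.83 log2, and in each the pools did not overlap.

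Of 30 translocation and glycosylation genes 16 were lower (median -1.13), with Sec11c of the signal peptidase at -1.36 ± 0.13, Ssr4 of the translocon-associated complex at -1.96 ± 0.22 and Ddost of the oligosaccharyltransferase at -1.30 ± 0.18 log2. Of 29 genes of transport to the Golgi 7 were lower (median -1.15), with the coatomer subunit Cope at -1.11 ± 0.13 and the cargo receptor Lman2 at -1.15 ± 0.16 log2. Of 18 degradation and stress genes 5 were lower (median -1.76), with Herpud1 at -1.36 ± 0.21 and Derl3 at -2.74 ± 0.57 log2, both parts of the machinery that removes misfolded proteins. Scaled to spike-in, the 4 medians were 0.30, 0.35, 0.31 and -0.25 log2, and 1, 0, 1 and 0 genes were lower. Most of the calls in CPM were thus lost per unit of spike-in, but the median of degradation and stress genes stayed below 0. Derl3 was then at -1.29 and Herpud1 at 0.11 log2.

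Promoters of the lower genes were searched for the ER stress response element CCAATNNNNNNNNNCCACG, which Atf6 and Xbp1 are known to use, on both strands of the RefSeq window (GRCm38.p6, which is mm10) from 250 bases before to 50 bases after each gene start. It was present in 7 of 111 lower genes with a promoter entry (6.31%), all 7 in the ER lists. Within the ER lists it was in 7 of 37 lower genes (18.9%) and in 2 of 44 tested genes that did not pass (4.55%). The motif was in 11 of 4259 tested genes (0.258%) and in 37 of 27025 RefSeq genes (0.137%). A match is a description of letters, not a site in use. The sites are printed 5′ to 3′ in the direction of the motif with 20 bases on each side, the CCAAT and CCACG ends in capitals as the search fixes them, to show the spacers and flanks of the genes in question. Hsp90b1 holds the motif on both strands. The windows lie at chr2:34772005-34772063 (+) for Hspa5, chr10:86705618-86705676 (-) and chr10:86705513-86705571 (+) for Hsp90b1, chr14:118937807-118937865 (+) for Dnajc3, chr15:88819500-88819558 (-) for Creld2, chr12:17266471-17266529 (+) for Pdia6, chr8:84847055-84847113 (+) for Calr and chr10:75893222-75893280 (-) for Derl3.
Hspa5: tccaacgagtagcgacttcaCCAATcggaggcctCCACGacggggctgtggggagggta
Hsp90b1, first site: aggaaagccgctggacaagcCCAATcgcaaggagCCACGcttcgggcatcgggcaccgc
Hsp90b1, second site: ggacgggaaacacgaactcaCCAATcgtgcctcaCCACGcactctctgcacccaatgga
Dnajc3: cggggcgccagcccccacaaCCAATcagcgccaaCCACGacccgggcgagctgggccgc
Creld2: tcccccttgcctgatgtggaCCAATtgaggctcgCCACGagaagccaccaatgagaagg
Pdia6: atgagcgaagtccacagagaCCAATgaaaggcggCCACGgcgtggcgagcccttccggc
Calr: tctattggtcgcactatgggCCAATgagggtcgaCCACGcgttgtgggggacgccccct
Derl3: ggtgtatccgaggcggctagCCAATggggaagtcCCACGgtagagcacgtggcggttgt

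Creld2, Pdia6 and Calr, a secreted ER stress protein, a disulphide isomerase and the lectin chaperone calreticulin, were named for this motif after their values were seen and were lower by -1.29, -1.11 and -0.93 log2 (adjusted p from 2.20e-07 for Pdia6 to 0.0344 for Calr). The Calr call was lost without plate 3, 12, 13, 14, 15, 19 or 20 (adjusted p 0.0532 to 0.133). The E-box CACGTG, which Myc and Max bind and which shares letters with the end of the longer motif, was present in 13 of 111 lower genes (11.7%). Within the ER lists it was in 7 of 37 lower genes (18.9%) and in 3 of 44 tested genes that did not pass (6.82%). It was in 9 of 30 tested Myc and ribosome biogenesis genes (30.0%) and 12.7% of tested genes.

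Antibody genes were lower in CPM, like the secretory genes. Of 12 constant region and joining chain genes tested 5 were lower and 0 higher (median -1.59 log2), against 2.79% of all genes lower. Jchain, which links IgM and IgA into polymers, was 804, 1677 and 2542 CPM in activated pools, against 3445, 7423 and 13187 CPM in plasma pools, with no overlap (-2.03 ± 0.17 log2, adjusted p = 4.35e-11). Mzb1, an ER cochaperone of antibody assembly, also had no overlap (-1.51 ± 0.13 log2). Igkc and Iglc1, light chain constant regions, were lower by -1.56 and -2.72 log2. Scaled to spike-in, 2 of the 12 were lower and 1 higher (median -0.05 log2), against 0.471% and 19.2% of all genes. Jchain (-0.53 log2) and Iglc1 (-1.28 log2) were then still called, and Mzb1 (-0.011 log2) and Igkc (-0.045 log2) were not. Of 19 plasma surface and survival genes 3 were lower, Sdc1, Ly6a at -1.47 ± 0.25 and Cd81 at -1.08 ± 0.21 log2, and Slpi, a secreted protease inhibitor, was -1.53 ± 0.47 log2 (adjusted p = 0.0703, and 0.0330 without plate 19). Xbp1 was the only lower gene of 13 plasma cell transcription factors (median -1.79 log2). Scaled to spike-in, 0 of these 13 and 0 of the 19 surface and survival genes were lower, and 1 of the 19 was higher.

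Genes of antigen receptor and antigen presentation were also lower in part in CPM, where 2.79% of all tested genes were lower. Of 21 B cell identity genes 4 were lower (median -0.84), among them Cd79a and Cd79b, the signalling chains of the receptor, at -1.85 ± 0.16 and -1.20 ± 0.21 log2 and Fcrla at -2.05 ± 0.39 log2. Cd79a was 574, 998 and 1341 CPM in activated pools, against 2082, 3226 and 5991 CPM in plasma pools, with no overlap. Of 11 MHC class II genes 4 were lower (median -0.52), with the invariant chain Cd74 at -1.18 ± 0.16, H2-Ab1 at -1.02 ± 0.15 and H2-Ob, a modulator of peptide loading, at -2.60 ± 0.55 log2. Of 12 MHC class I and immunoproteasome genes 3 were lower (median -0.70), with B2m at -1.31 ± 0.15 and H2-K1 at -1.38 ± 0.19 log2. Scaled to spike-in, 5 of 11 MHC class II and 4 of 12 MHC class I genes were higher and 0 lower, against 19.2% of all genes higher. H2-Ab1 was then at 0.46 (adjusted p = 0.0148) and H2-Eb1 at 0.76 log2 (adjusted p = 0.00458). In CPM H2-Eb1 was lower by -0.66 log2 (adjusted p = 0.00685). Eaf2 was the only lower gene of 14 germinal centre genes (-1.45 ± 0.27 log2). Of 15 CD40, NF-kappa-B and light zone genes 0 passed, with Cd40 at 2.32 ± 1.32 (adjusted p = 0.686) and Il21r at -3.08 ± 1.21 log2 (adjusted p = 0.256).

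Most growth and division genes had values above 0, and 1 of them passed. Of 36 Myc and ribosome biogenesis genes 32 were above 0, the median was 0.92 log2, and 1 passed, Npm1. Nhp2, a core protein of snoRNA particles, had medians of 886 CPM in activated and 404 CPM in plasma pools (1.42 ± 0.43 log2, adjusted p = 0.0590, and 0.0190 to 0.0452 without plate 2, 13 or 19). Of 29 nucleotide synthesis, 34 DNA replication and 28 mitosis genes 0 passed, with medians of 0.67, 0.41 and 0.40 log2, for example Tk1 at 1.08 ± 0.56, Pcna at 0.64 ± 0.30 and Ccnb1 at 0.76 ± 0.31 log2 (adjusted p from 0.321 for Ccnb1 to 0.578 for Tk1). Scaled to spike-in, 27 of 36, 20 of 29, 19 of 34 and 18 of 28 genes of these lists were higher, against 19.2% of all genes. Btg2, an inhibitor of division, was -2.06 ± 0.66 log2 (adjusted p = 0.0901, and 0.0242 without plate 19), and 0 of 13 cell cycle drivers and inhibitors passed.

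Few metabolic and trafficking genes passed in CPM, where 2.79% of all genes were lower, and with spike-in scaling more were called, in the other direction. Of 32 oxidative phosphorylation genes 1 was lower (Ndufa1, -1.23 ± 0.32 log2, a call lost without plate 13 or 15), of 7 mitochondrially encoded genes 2 were lower (mt-Co1, -1.12 ± 0.14, and mt-Cytb, -0.72 ± 0.16 log2), and of 14 glycolysis genes 0 passed (Eno1, 0.72 ± 0.33 log2, adjusted p = 0.420). Of 20 amino acid transporters and tRNA synthetases 1 was lower, Slc3a2, the heavy chain of the large neutral amino acid transporter (-1.20 ± 0.28 log2). Of 17 migration and adhesion genes 0 passed, with Itgb2 at -1.95 ± 0.70 log2 (adjusted p = 0.176). Scaled to spike-in, 26 of 32 oxidative phosphorylation, 8 of 14 glycolysis, 4 of 7 mitochondrially encoded, 5 of 20 amino acid and 1 of 17 migration genes were higher and 0 lower, against 19.2% of all genes higher. The gene mt-Cytb was then called in the other direction (0.78 log2, adjusted p = 8.56e-06).

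**Figure D3:**
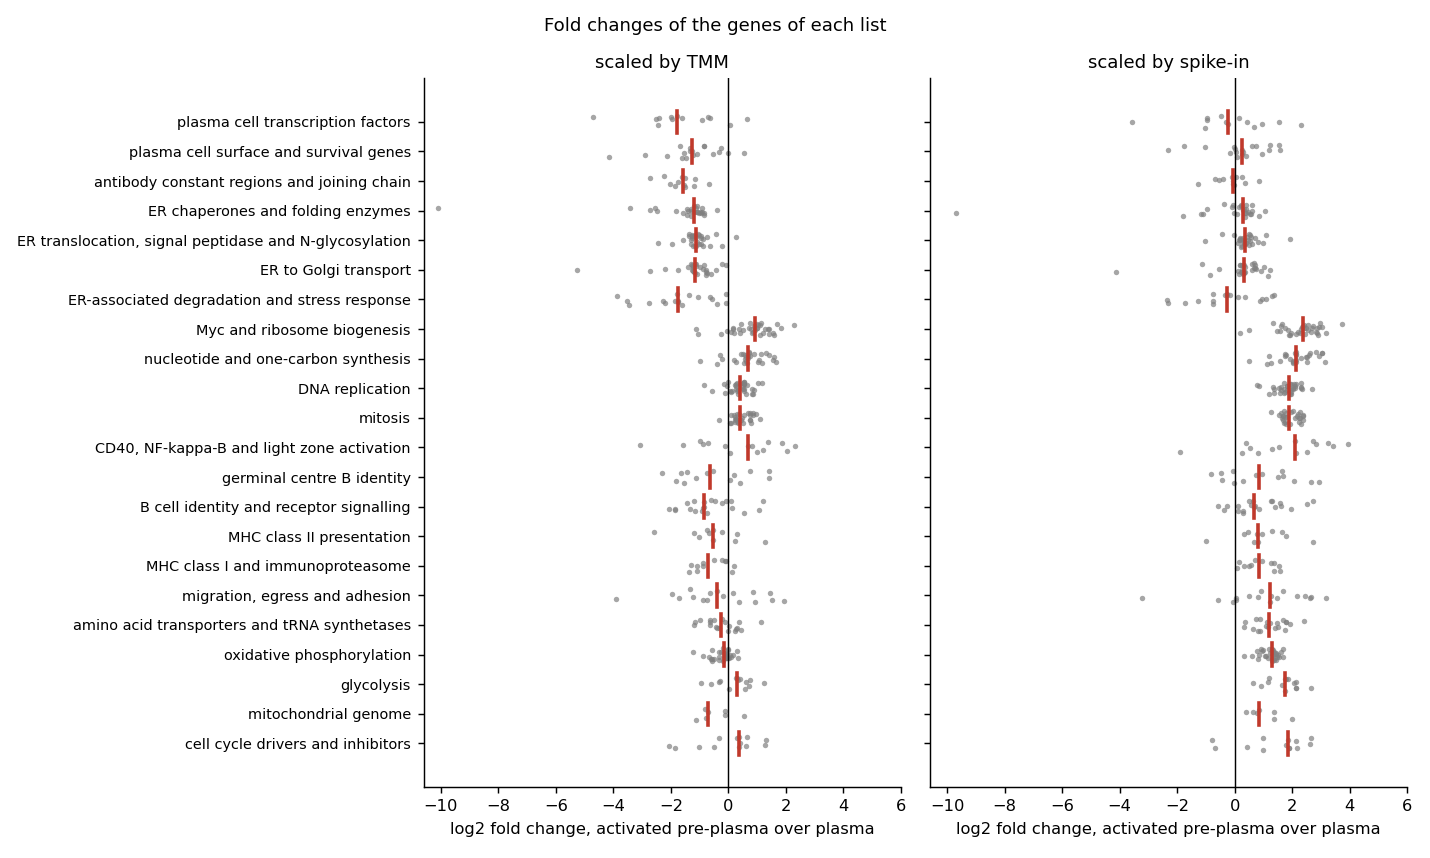
Log2 fold change, activated pre-plasma over plasma, of each tested gene (grey) in 22 lists and the list median (red), scaled by TMM (left) and by spike-in (right). The median of all tested genes is -0.13 on the left and 1.32 on the right, and ER medians near -1.2 on the left lie near 0.3 on the right, except for degradation and stress genes.

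The authors' cell cycle calls differed as well. Of 29 activated cells 1 was called G1 (3.45%, exact Clopper-Pearson 95% interval 0.0873% to 17.8%), 12 S and 16 G2M, against 67 of 128 plasma cells in G1 (52.3%, 43.3% to 61.2%), 29 in S and 32 in G2M. The intervals cover counting error only. The G1 share was lower in activated cells on 9 of 10 plates. The calls come from the same RNA at unequal depth, and cycling was not read from them alone. In CPM 0 replication and mitosis genes passed. With spike-in scaling 19 of 34 and 18 of 28 were higher, against 19.2% of all genes, and Mki67 was 1.95 log2 higher (adjusted p = 0.00397). With S and G2M cells only in both states, added after the data were seen, 30 genes were lower (0.567%) and 1 higher (0.0189%) of 5287, and 30 of these 30 were lower in the full comparison. Lsm7 was the gene that stayed higher (1.27 log2, adjusted p = 0.0399), and Xbp1 was lower by -1.01 log2 (adjusted p = 0.0054).

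Several surface proteins, which were not part of the transcript scores, differed in mean between the states on the same plates, with plate means that overlap. GL7, a sialylated glycan of germinal centre B cells, had plate means of 1.48, 3.72 and 4.23 (lowest, median, highest, inverse hyperbolic sine of the signal) in activated cells, against 0.887, 1.47 and 2.22 in plasma cells. The activated mean was higher on 9 of 10 plates, by 1.91 ± 1.09 (SD, n = 10 plates, exact two-sided sign-flip permutation, adjusted over 10 channels, p = 0.0130). CD86, a costimulatory ligand, was 1.59, 2.83 and 3.54 in activated cells, against 0.436, 1.46 and 2.59 in plasma cells, higher on 9 of 10 plates by 1.30 ± 1.14 (exact permutation, adjusted p = 0.0156). CD138 was 0.706, 1.19 and 1.86 in activated cells, against 1.51, 1.88 and 2.10 in plasma cells, lower on 10 of 10 plates by -0.61 ± 0.42 (exact permutation, adjusted p = 0.0130). Protein and RNA of CD138 and Sdc1 were thus both lower.

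The remaining channels moved less. CXCR4, the receptor that draws cells to the dark zone and to medullary niches, was higher by 0.46 ± 0.44 on 9 of 10 plates (exact permutation, adjusted p = 0.0156). CD38 was higher by 0.28 ± 0.32 on 8 of 10 plates (exact permutation, adjusted p = 0.0363), and PSGL1, a selectin ligand, was lower by -0.26 ± 0.33 on 7 of 10 (exact permutation, adjusted p = 0.0366). B220 differed by -0.15 ± 0.43 (exact permutation, adjusted p = 0.293). The CD38 call was lost without plate 2, 3, 12, 13, 14, 17 or 20, and the PSGL1 call without plate 2, 8, 12, 14, 15, 19 or 20, with differences of 0.24 to 0.34 for CD38 and -0.33 to -0.21 for PSGL1. The channel shared by Gr1, CD3 and IgD was also higher, 0.564 ± 0.424 in activated cells and 0.0957 ± 0.0767 in plasma cells (SD, n = 10 plates, exact permutation, adjusted p = 0.0195), and the live/dead dye was 0.463 ± 0.446 in activated and 0.141 ± 0.259 in plasma cells (exact permutation, adjusted p = 0.0846). The part of a signal common to all channels in the higher values was not tested, and CD138, PSGL1 and B220 did not share that direction.

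**Figure D4:**
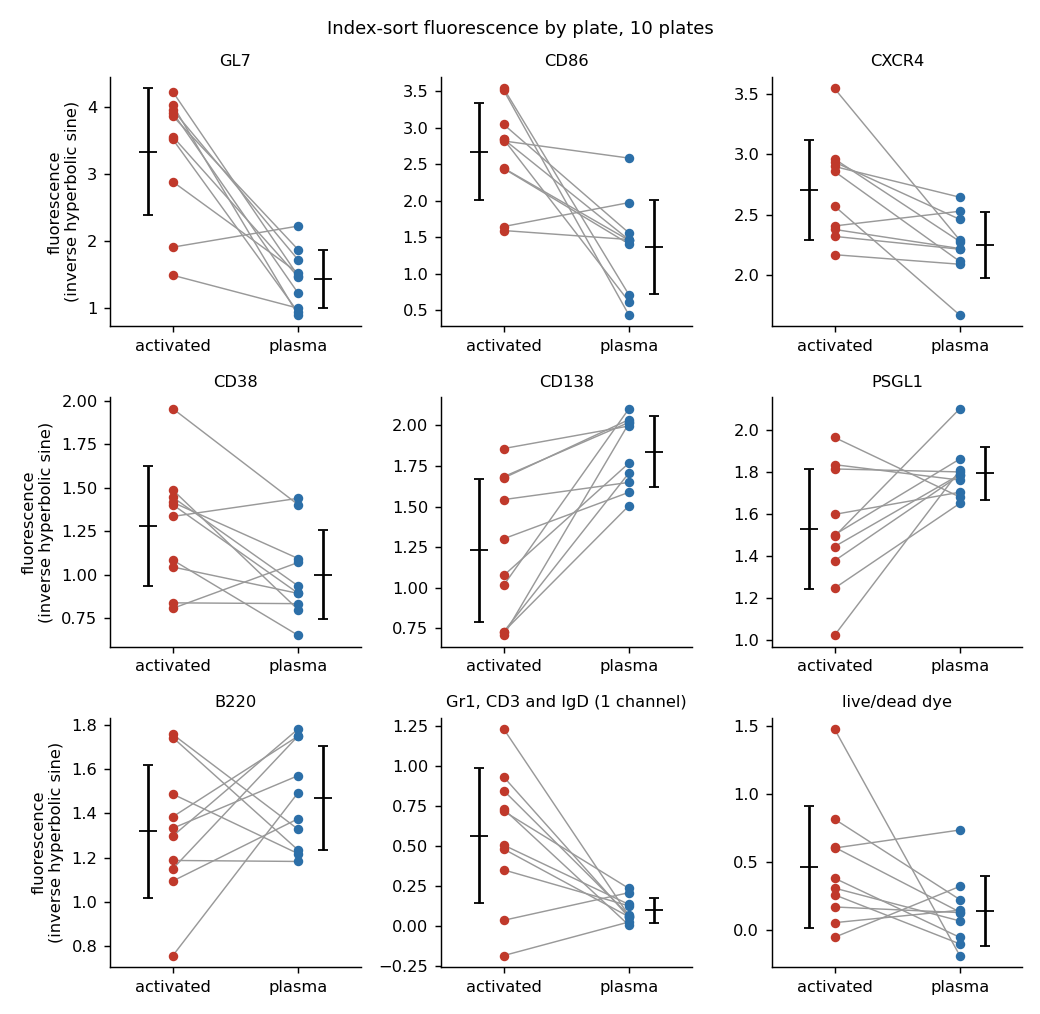
Plate means of 9 index-sort channels (inverse hyperbolic sine of the signal) in activated pre-plasma (red, left) and plasma cells (blue, right), with a line for each of 10 plates and black bars for mean and SD. GL7 is higher in activated cells on 9 of 10 plates and CD138 lower on 10 of 10.

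By sampleID the differences kept their sign, with GL7 higher by 2.17 over 3 plates of C57BL/6F and by 1.80 over 7 plates of C57BL/6M, and CD138 lower by -0.68 and -0.58. With 3 plates the smallest exact permutation p is 0.250, so no test within C57BL/6F could pass. The RNA of the sorted proteins was mostly not called. Selplg, which encodes PSGL1, was -1.0 ± 0.42, Ptprc -0.84 ± 0.48 and Cd38 -1.35 ± 1.12 log2 (adjusted p from 0.340 for Selplg to 0.931 for Cd38). Cxcr4 had 50 counts in 5 activated and 122 counts in 11 plasma cells, and Cd86 had 44 counts in 3 activated and 253 counts in 10 plasma cells, too few to test. St6gal1, which adds the sialic acid that GL7 needs, was -1.44 ± 0.61 log2 (adjusted p = 0.341), and Cmah, which converts that sialic acid to another form, was -0.48 ± 0.68 log2 (adjusted p = 0.994). These genes were chosen after the fluorescence was seen.

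Receptor sequences did not part the states beyond the adjustment. Plate means of heavy chain mutations were 0.00, 4.00 and 6.00 in activated cells, against 0.200, 1.44 and 3.0 in plasma cells, higher on 7 of 10 plates by 1.46 ± 1.94 (SD, n = 10 plates, exact permutation p = 0.0469, adjusted over 2 chains 0.0938). Light chain mutations differed by -0.18 ± 0.84 (exact permutation, adjusted p = 0.512). Of 28 activated cells with a heavy chain 13 were unmutated (46.4%, 27.5% to 66.1%), as were 66 of 126 plasma cells (52.4%, 43.3% to 61.3%). GL7 had a median of 3.31 in unmutated and 4.02 in mutated activated cells, against 1.18 in unmutated and 1.36 in mutated plasma cells.

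Some clones, as the authors' table groups them, held both states. The 28 activated cells with a clone fell into 25 clones, of which 5 also held plasma cells of the gate, with 8 activated and 11 plasma cells. The largest of these, with the heavy chain segment IGHV1-22, had 4 activated cells, 6 plasma cells of the gate and 17 cells of germinal centre states among its 36 cells. Its activated cells and its gate plasma cells both carried 7 to 9 heavy chain mutations. Its cells came from 2 sampleIDs, as did those of 25 of 135 clones with 2 or more cells. How clones were grouped is not given in the sources used here, so a shared clone does not show common descent. By the most abundant constant region RNA, 5 of 29 activated cells were IgM (17.2%, 5.85% to 35.8%), against 41 of 128 plasma cells (32.0%, 24.1% to 40.9%), and the intervals overlap.

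Set beside the other annotated states in CPM, activated cells stood between germinal centre and plasma cells in Xbp1 and Hspa5, and not in Irf4, Jchain, Myc, Apoe or Cd79a. Irf4 averaged 195 ± 147 CPM in activated pools (n = 10), against 163 ± 136 CPM in plasma cells of the gate and 205 ± 108 CPM in plasma cells of the plasma gate (n = 19 each), and 20.3 ± 34.0 CPM in light-to-dark zone cells (n = 15, SD, CPM without TMM scaling). These 3 states with Irf4 do not differ beyond their spread. Xbp1 was 260 ± 215 CPM in light-to-dark zone pools, 885 ± 427 CPM in activated pools, 2499 ± 612 CPM in gate plasma cells and 4021 ± 645 CPM in plasma gate cells, with each step larger than the SD of the state below it. Jchain averaged 3152 CPM in dark zone, 2225 CPM in light zone and 1510 CPM in light-to-dark zone pools, 1972 CPM in activated pools and 6658 CPM in gate plasma cells, so the activated level lay within the germinal centre range. Myc averaged 45.2 CPM in dark zone, 79.2 CPM in light zone, 230 CPM in light-to-dark zone and 195 CPM in activated pools, and 53.5 CPM in gate plasma cells. Apoe (6.34 CPM) and Cd79a (1039 CPM) had lower means in activated pools than in any of the 3 germinal centre states and either group of plasma cells, whose lowest means were 127 CPM for Apoe and 1715 CPM for Cd79a. These levels are descriptions, since the states were named from RNA. They also depend on scaling. Scaled to spike-in, activated against gate plasma cells differed by -0.245 log2 for Xbp1 and 0.37 log2 for Hspa5, neither called. The other states were not scaled to spike-in.

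**Figure D5:**
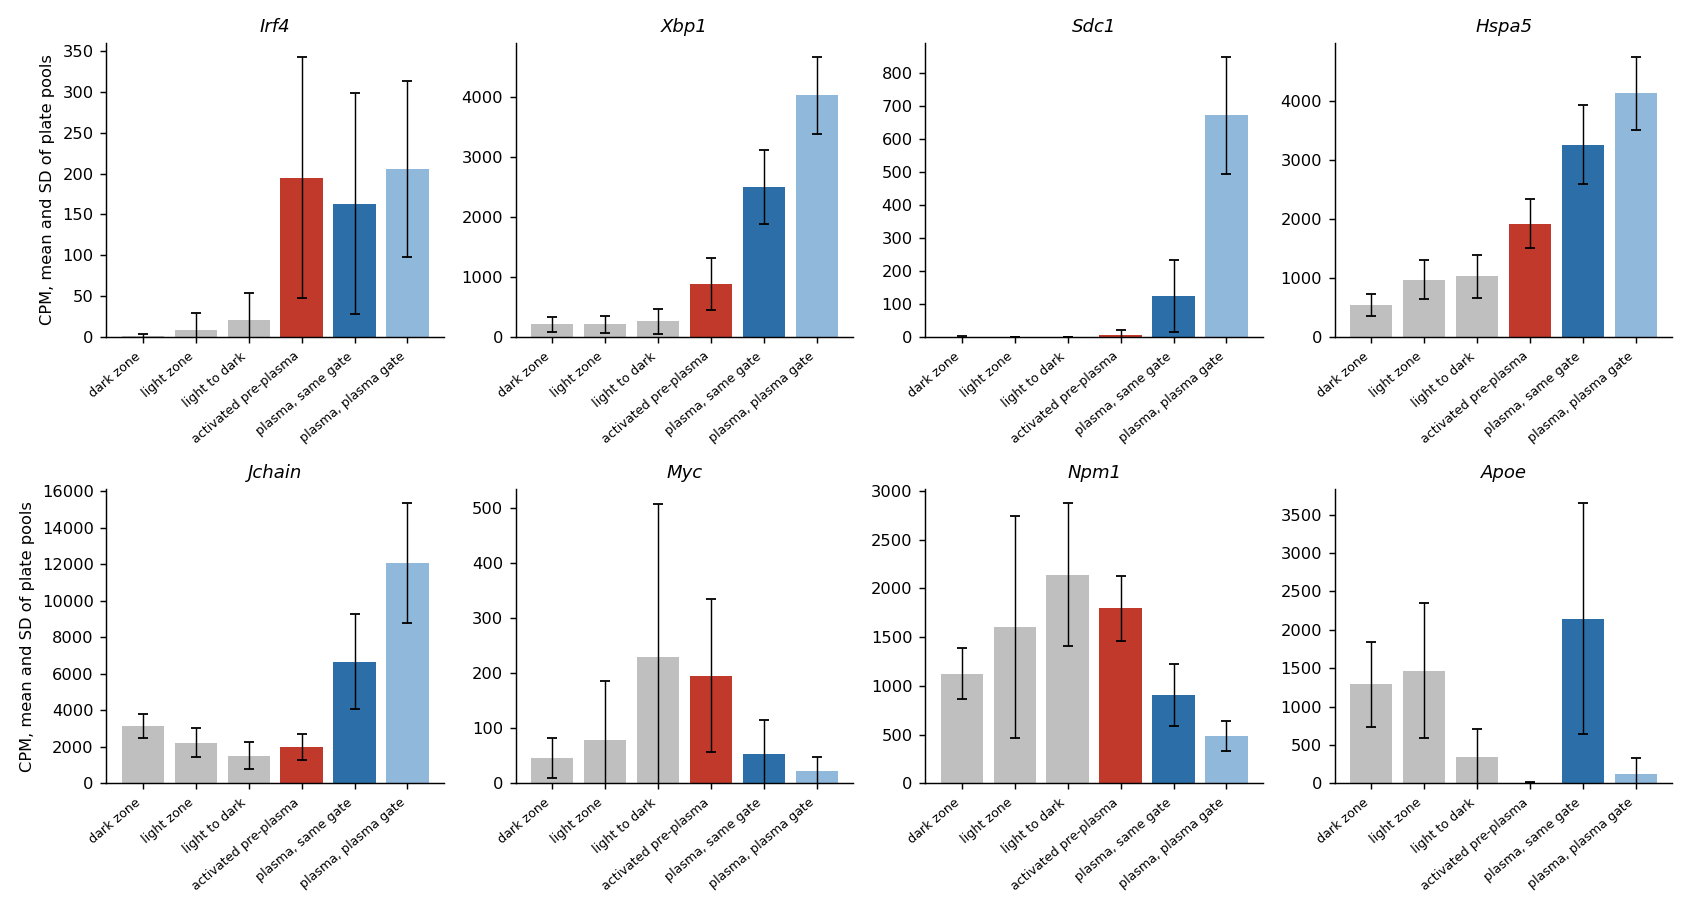
Level of 8 genes in CPM without TMM scaling, as mean and SD of plate pools, in 3 germinal centre states (grey), activated pre-plasma (red), plasma cells of the same gate (dark blue) and plasma cells of the plasma gate (light blue). Irf4 in activated cells lies with the plasma states, Xbp1 lies between germinal centre and plasma states, and Apoe is near 0 in activated cells.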

How the data were processed

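Index-sorted single cells were sequenced in plates by FB5P-seq, a 5′-end method, after cDNA was amplified for 22 cycles, per the labels' protocols. The deposited matrix gives raw counts of 16047 genes in 1367 cells. The submitters' processing notes name STAR 2.5.3a, HTSeq 0.9.1 and mm10. Filters on cells and any doublet removal are not given in the sources used here, and no doublet caller was run. The fluorescence and transcript values are deposited as a score per cell, the fluorescence as an inverse hyperbolic sine of the signal divided by 10 or 100. The spike-in share is a deposited fraction of the counts of each cell. Spike-in counts recovered from it were whole within 0.01 in 1367 of 1367 cells.

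The table of cells gives plate, gate, state, sampleID and phase, and plates were the replicates. The sampleIDs differ in a letter that the table also lists under sex, so sex, animal and sampleID cannot be told apart. Plate names match no sample title, so plates were not tied to single GEO samples. Of 20 plates, plate 6 held no cell of either state. Counts per plate and state (at least 2 cells) were filtered by filterByExpr, TMM-scaled and fitted in edgeR 4.0.16 (R 4.3.3) as state plus sampleID with estimateDisp, glmQLFit and glmQLFTest. SE values were taken from the F statistic, and the threshold was an adjusted p of 0.05 (Benjamini-Hochberg over all 5515 genes). Plate means over 10 plates were compared by an exact sign-flip permutation over all sign patterns, computed with NumPy and adjusted within each family. Exact binomial intervals came from SciPy. One of the 10 fluorescence channels entered the adjustment and is not reported here. The steps were tested on simulated counts. Plate was not a term of the main fit, and the correlations of deviations of same-plate pools ran from -0.03 to 0.10.

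Named genes were the markers, up to 12 per direction with the largest change among genes of at least 100 CPM and a count in at least 0.5 of the pools of the higher state, with the same sign in both sampleIDs, the members of each list with the smallest p, and a few regulators. Immunoglobulin variable and unnamed genes were left out. Alternatives covered scaling, tool, filter, cells per pool, plate as block, thinning to 20000 counts per cell, and leaving out plates. The cells, lists and genes were chosen with earlier results of these data known. Intervals and floors cover counting error only.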

Additional observations from a re-analysis of the deposited data

Results flagged for a closer look

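Of 66 groups of pools or plate means of 4 to 10 samples, 13 had 1 sample far from the others. The rule flags about 1 in 20 by chance only where values are normally distributed. Several flagged groups hold pools at 0 CPM, so the 13 are not read as an excess over chance. In activated pools the highest value stood apart for Irf7 (10.7 CPM, nearest pool 0.834 CPM, plate 19), Gpx3 (53.5 CPM, nearest 0.00, plate 8), Cd68 (41.3 CPM, nearest 0.00, plate 19) and Prg2 (172.9 CPM, nearest 37.5 CPM, plate 2). It also stood apart for Cyp4f18 (282.1 CPM, nearest 98.8 CPM, plate 14), Trp53inp1 (63.6 CPM, nearest 21.7 CPM, plate 8), Isg20 (520.6 CPM, nearest 267.5 CPM, plate 14) and Sec11c (1651 CPM, nearest 1244 CPM, plate 14). Hsp90b1 was lowest on plate 15 (674.4 CPM, nearest 1034 CPM). The immunoglobulin share of activated cells was highest on plate 14 (3.29%, nearest 1.84%). Among plate means of plasma cells, PSGL1 was highest on plate 19 (2.10, nearest 1.86). On plate 2 plasma cells had the fewest log2 genes per cell, 9.23 (nearest 10.3), or 9.05 after thinning (nearest 10.01).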

How the results depend on the processing

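Against 158 genes called (4 higher, 154 lower), edgeR with DESeq2's size factors called 26 higher, DESeq2 261 (60 higher), voom with quality weights 362 (63 higher, 299 lower), glmQLFit without estimateDisp 508 (97 higher, 411 lower) and no filter on low counts 1198 (399 higher, 799 lower). Pools of at least 1 cell gave 9 higher, pools of at least 3 cells 19 higher and 98 lower, cells thinned 308 (68 higher, 240 lower), pools thinned 14 higher and no immunoglobulin genes 11 higher. The settings tested unlike numbers of genes, so these counts are not shares of 1 total. It was 5515 in the main comparison, 2578 with cells thinned, 7771 with pools of at least 3 cells and 12717 with no filter. Within C57BL/6F 42 genes were called (0 higher, 42 lower), and within C57BL/6M 2 were higher. Leaving out 1 plate at a time gave 141 to 194 calls, 1 to 10 higher and 137 to 184 lower. Added after the data were seen, spike-in scaling gave 1086 (1060 higher, 26 lower), cycling cells 31 (1 higher, 30 lower), matched depth 84 (2 higher, 82 lower) and matched activation score 0 (0 higher, 0 lower). Whether the difference between the states differed between the sampleIDs was tested by edgeR's interaction term. It was called in 0 of 5515 genes (188 at an unadjusted p under 0.05), and in 0 of 4934 with single cells (85). Levels were not compared between the sampleIDs themselves. The causes of these moves were not tested.

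With plate as a replicate block 94 genes were called (5 higher, 89 lower) of 4049 tested. Deviations of pools of the same plate had correlations of -0.03 to 0.10, best with the own plate in 1 of 10. Pools of few cells cannot show by this that plates share nothing.

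Every fluorescence call given here was lost within a sampleID (exact permutation, fewer plates). The values within C57BL/6F and within C57BL/6M were 2.17 and 1.80 for GL7, -0.68 and -0.58 for CD138, 1.28 and 1.32 for CD86, 0.10 and 0.61 for CXCR4, 0.34 and 0.52 for Gr1/CD3/IgD, 0.32 and 0.26 for CD38, and -0.37 and -0.22 for PSGL1. With cycling cells these calls were also lost, at 1.34 for GL7, -0.50 for CD138, 1.05 for CD86, 0.36 for CXCR4, 0.38 for Gr1/CD3/IgD, 0.15 for CD38 and -0.055 for PSGL1. With plates of at least 1 cell of each state CD38 (0.14) and CXCR4 (0.34) lost their calls, as did PSGL1 (-0.29), CD38 (0.34) and CXCR4 (0.36) with medians in place of means. Leaving out a plate, PSGL1 ran from -0.33 to -0.21, CD38 from 0.24 to 0.34, the live/dead dye from 0.17 to 0.40 (called without plate 15) and heavy chain mutations from 1.12 to 1.78 (called without plate 8).

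Of 70 named genes 22 changed sign with spike-in scaling, at 0.0040 for Ly6a, 0.40 for Cd81, 0.080 for Ppib, 0.17 for Hsp90b1, 0.13 for Sec11c, 0.18 for Ddost, 0.34 for Cope, 0.36 for Lman2, 0.11 for Herpud1, 0.28 for Cd79b, 0.31 for Cd74, 0.46 for H2-Ab1, 0.16 for B2m, 0.093 for H2-K1, 0.33 for Slc3a2, 0.32 for Ndufa1, 0.38 for mt-Co1, 0.78 for mt-Cytb, 0.37 for Hspa5, 0.21 for Creld2, 0.54 for Calr and 0.35 for Pdia6 (log2), of which H2-Ab1 and mt-Cytb became calls in the other direction. With matched activation score 7 did, at -0.044 for Npm1, 0.062 for Cd81, 0.014 for Cd79b, 0.038 for Cd74, 0.051 for H2-Ab1, 0.21 for Slc3a2 and 0.22 for mt-Cytb. Sign changes of genes called under neither setting are not counted. Activated pools hold 2 to 4 cells, which limits genes of low counts.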
